A study of Mus musculus with 12 samples.

Results

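The genomic neighbourhoods of 9 genes that encode transcription factors of hepatocytes were examined for chromatin accessibility: Hnf4a, Foxa1, Foxa2, Foxa3, Gata4, Cebpa, Onecut1, Onecut2 and Xbp1. A locus was taken as the gene body plus 25 kb on each side, in the GENCODE M21 annotation of mm10, and every ATAC-seq peak that overlapped it was counted as a member. Of the 176680 peaks in the deposited table, 91 were members, between 5 at Foxa2 and 17 at Gata4. Of these, 7 lay over coding exons of the factor itself and are described apart, because an expression cassette carries coding sequence and its DNA can add reads there. The other 84 peaks are the subject of the counts below, save where coding-exon peaks are said to be counted too.

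The cells were primary mouse embryonic fibroblasts (MEFs) from wild-type C57BL/6N embryos, transduced with lentivirus and collected on day 2 of transgene induction with doxycycline. All 12 libraries carried rtTA, the transactivator that switches on tetO promoters in the presence of doxycycline, and they formed 4 groups of 3: MEF (rtTA alone), Prox1_OE (rtTA and mouse Prox1), 4in1_GFP_OE (rtTA, the 4in1 reprogramming cassette and GFP) and 4in1_Prox1_OE (rtTA, the 4in1 cassette and mouse Prox1). The table compares the last pair, so its values rest on 6 libraries, and the MEF and Prox1_OE groups are not analysed here. Which factors the 4in1 cassette encodes is not given in the sources used here. The cells were a transduced bulk population, in which fewer cells with an open site and less opening per cell cannot be told apart.

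Hepatocyte identity is held by a small network of transcription factors that bind together at liver enhancers and at each other's genes. HNF4A is a nuclear receptor at the centre of this network. The FOXA proteins are forkhead factors that can bind closed chromatin and prepare liver genes for activation, and GATA4 acts beside them in the early liver bud. CEBPA, a basic leucine zipper factor, drives metabolic genes of the mature cell, the ONECUT factors act in liver and bile duct development, and XBP1 is the transcription factor of the unfolded protein response that builds up the secretory machinery. PROX1 is a homeodomain factor of hepatocytes, and the comparison asks what its addition does to chromatin while fibroblasts are being driven towards this fate.

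The sequences shown first are those that the results below turn on, read from the plus strand of GRCm38 from 5′ to 3′. Start-site peaks of Foxa2, Gata4 and Onecut1 come first, then the peak of Hnf4a that was lowest with Prox1 among its more accessible sites and a peak downstream of Onecut1, then the Hnf4a peak with the largest positive difference, and last the 3 member peaks that hold the FOXA letters. Capitals mark the letters of a motif, where one was found.
Foxa2 start site, chr2:148044886-148045086: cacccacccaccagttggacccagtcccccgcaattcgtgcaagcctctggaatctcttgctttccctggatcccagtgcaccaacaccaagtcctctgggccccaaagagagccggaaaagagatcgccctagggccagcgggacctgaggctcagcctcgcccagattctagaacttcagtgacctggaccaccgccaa
Gata4 start site, chr14:63245272-63245463, with the HNF4 letters in capitals: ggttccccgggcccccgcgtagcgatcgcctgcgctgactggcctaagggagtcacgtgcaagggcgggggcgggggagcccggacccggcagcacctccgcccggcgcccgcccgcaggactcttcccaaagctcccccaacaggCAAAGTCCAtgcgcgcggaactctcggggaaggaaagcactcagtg
Onecut1 start site, chr9:74861722-74861920: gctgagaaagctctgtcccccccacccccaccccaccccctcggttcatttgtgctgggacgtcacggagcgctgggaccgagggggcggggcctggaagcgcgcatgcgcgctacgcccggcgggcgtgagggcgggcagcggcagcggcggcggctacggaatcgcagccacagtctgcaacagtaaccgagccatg
Hnf4a upstream, chr2:163494089-163494289, with the TEAD letters in capitals: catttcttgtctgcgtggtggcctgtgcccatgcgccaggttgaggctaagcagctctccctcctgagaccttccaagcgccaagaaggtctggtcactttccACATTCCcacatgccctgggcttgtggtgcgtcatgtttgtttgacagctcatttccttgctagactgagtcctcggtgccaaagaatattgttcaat
Onecut1 downstream, chr9:74912062-74912262, with the GATA letters in capitals: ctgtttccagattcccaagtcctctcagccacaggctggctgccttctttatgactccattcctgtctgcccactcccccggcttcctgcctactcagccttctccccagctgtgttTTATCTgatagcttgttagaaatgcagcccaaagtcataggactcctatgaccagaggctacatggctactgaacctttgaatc
Hnf4a upstream, chr2:163502304-163502451: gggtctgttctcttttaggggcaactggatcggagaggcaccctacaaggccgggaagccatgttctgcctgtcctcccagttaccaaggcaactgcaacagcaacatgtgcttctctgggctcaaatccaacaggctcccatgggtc
Foxa3 downstream, chr7:19010682-19010882, with the FOXA letters in capitals: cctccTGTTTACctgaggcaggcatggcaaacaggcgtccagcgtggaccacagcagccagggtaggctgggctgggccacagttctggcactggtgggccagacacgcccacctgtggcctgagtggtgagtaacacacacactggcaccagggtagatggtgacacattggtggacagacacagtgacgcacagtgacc
Cebpa downstream, chr7:35134736-35134936, with the FOXA letters in capitals: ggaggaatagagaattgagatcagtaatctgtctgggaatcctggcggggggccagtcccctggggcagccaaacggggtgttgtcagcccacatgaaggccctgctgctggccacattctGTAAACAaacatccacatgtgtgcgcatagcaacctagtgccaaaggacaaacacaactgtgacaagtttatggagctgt
Foxa1 downstream, chr12:57534925-57535125, with the FOXA letters in capitals: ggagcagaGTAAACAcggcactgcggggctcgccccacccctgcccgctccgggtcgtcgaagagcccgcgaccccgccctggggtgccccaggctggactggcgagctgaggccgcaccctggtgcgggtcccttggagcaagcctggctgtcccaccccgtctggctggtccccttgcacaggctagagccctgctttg

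Accessibility is given as the concentration of a peak, the log2 of the mean normalized read count of the 3 libraries of an arm, as the authors deposited it. Differences are 4in1_Prox1_OE minus 4in1_GFP_OE on this log2 scale, so a difference of 1 is a 2-fold change. The concentrations come as group means with no value per library, and the p-values of the authors' own comparison were not used. No difference below is therefore set against replicate error, the depth of each library is unknown, and every difference is a description of 2 group means. Across all peaks the median difference was -0.42 (quartiles -0.99 and 0.074), and the summed normalized reads of 4in1_Prox1_OE were 0.751 of those of 4in1_GFP_OE. Where 0 lies on this scale thus matters. For the peaks the results turn on, the percentile among all peaks in the same decile of mean concentration is given too, which does not depend on where 0 lies. All 10 fibroblast marker genes had a peak within 1 kb of a start site (concentrations from 7.28 to 9.43 in 4in1_GFP_OE and from 6.999 to 9.06 in 4in1_Prox1_OE), whereas none of the 5 hepatocyte markers Alb, Ttr, Apoa1, Serpina1a and Tat had one. Of markers of other cells, 3 of 4 endothelial, 3 of 3 epithelial and 0 of 3 blood genes had such a peak. The endothelial ones lay between 8.25 and 8.84 in 4in1_GFP_OE and between 6.65 and 8.80 in 4in1_Prox1_OE, with the widest difference at Pecam1 (8.25 and 6.65). The epithelial ones lay between 7.54 and 7.82 and between 7.06 and 8.60, with Epcam at 7.60 and 8.60 and Krt8 at 7.82 and 7.06. Whether endothelial or epithelial cells were present, and had a part in the results, was not tested.

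The start-site peaks of the factors were accessible in both arms and differed by less than 1 between them. Of the 9 genes, 8 had a peak within 1 kb of an annotated start site, 9 peaks in all, among them the coding-exon peaks of Foxa3 and Xbp1. Hnf4a had none, also with the comprehensive annotation or within 2 kb. The differences of the 9 ran from -0.35 to 0.44 with a median of 0.048, and none reached 1 in either direction. Of them, 6 lay above 0 (9, 9, 8 and 8 when centred on all peaks, equal totals, the most accessible 10% or promoter peaks). The 7 outside coding exons had a median of 0.15, with 5 above 0. Within 2 kb, 12 peaks ran from -0.62 to 0.44. With the comprehensive annotation, 10 peaks ran from -0.68 to 0.44, the lowest being the Gata4 peak at chr14:63271473-63271673. Over all 22215 promoter peaks of the table the median was -0.21, 77.9% lay below 0 (under the same 4 centrings 72.6%, 72.3%, 57.7% and 50.0% lay above 0), 8.26% were lower by at least 1 and 3.16% were higher by at least 1.

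The start-site peak of Onecut1 went from 8.44 in 4in1_GFP_OE to 8.62 in 4in1_Prox1_OE, or from 347 to 393 normalized reads. That of Onecut2 went from 8.89 to 9.04, and that of Foxa1 from 8.35 to 8.51. These 3 peaks were among the most accessible of the table, and their small positive differences (0.18, 0.15 and 0.16) placed them at percentiles 97.6, 97.2 and 97.3 of the peaks in the same decile of mean concentration. The Foxa2 start-site peak had the largest positive difference of the 9, from 7.05 to 7.49 (133 to 180 normalized reads, percentile 91.4). The Gata4 peak stood almost level, at 8.27 and 8.30 (percentile 88.1). The Foxa3 peak that lies 0.73 kb upstream of its start, shared with the start of the neighbouring gene Sympk, had 9.37 and 9.28 (percentile 84.1). The Cebpa peak, which also lies within 1 kb of the start of Gm45091, had the largest negative difference of the 9, from 9.42 to 9.07 (686 to 539 normalized reads). Its difference turned to 0.070 when centred on all peaks and 0.065 with equal totals. At percentile 38.1 of its decile it was the one of the 9, outside coding exons, that ranked in the lower part of peaks of like accessibility. The Gata4 peak that the comprehensive annotation adds went from 7.80 to 7.12 and stood at percentile 46.4.

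**Figure D1:**
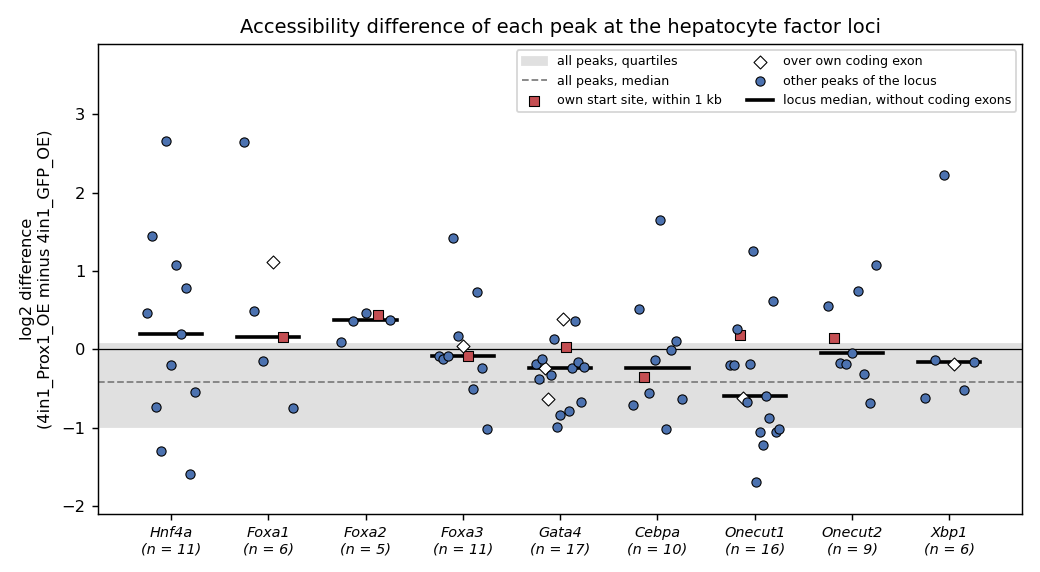
Log2 difference (4in1_Prox1_OE minus 4in1_GFP_OE) of each of the 91 member peaks, 1 point a peak, by gene. Red squares are peaks within 1 kb of the gene's own start site, white diamonds peaks over its coding exons, black bars the locus medians without coding exons, the grey band the quartiles of all peaks (-0.99 to 0.074) and the dashed line their median (-0.42). The start-site squares sit between -0.35 and 0.44, while the distal peaks of Hnf4a spread from -1.59 to 2.66 and the median of Onecut1 lies at -0.59.

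Over the 84 member peaks outside coding exons, differences of at least 1 were equally frequent in both directions, though not with a narrower or wider window: a flank of 10 kb held 2 lower and 6 higher of 50 peaks, and one of 50 kb held 19 lower and 13 higher of 127. There were 9 peaks lower by at least 1 (10.7%, 95% Wilson interval 5.74% to 19.1%), against 24.4% of all peaks of the table. There were 9 peaks higher by at least 1 (10.7%, the same interval), against 8.33% of all peaks. The intervals cover the counting of peaks only, and peaks of 1 locus are not independent. The median difference of the members was -0.15 (quartiles -0.60 and 0.36), 0.26 above the median of all peaks, and 61.9% of members lay below 0 against 72.3% of all peaks. With the scale centred on the median of all peaks, 2 members were lower and 13 higher by at least 1, against 8.64% and 13.4% of all peaks.

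The large differences lay away from start sites in both directions. The 65 member peaks more than 1 kb from any start site held all 18 peaks past 1, with 9 lower and 9 higher (13.8% each), against 26.7% lower and 9.08% higher among all 154465 such peaks. The 12 members near the start of another gene only held none, with a median of -0.14. Within gene bodies, the 21 distal peaks held 0 lower and 3 higher. The 16 upstream of the genes held 2 lower and 3 higher, and the 28 downstream held 7 lower and 3 higher, 5 of the 7 at Onecut1.

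The peaks past 1 were alike in mean concentration in both directions, with 7 of the 9 higher and 6 of the 9 lower ones below the median of all peaks. The higher peaks had a median of 5.27 in 4in1_GFP_OE and 6.76 in 4in1_Prox1_OE, and the lower ones of 7.12 and 5.77, values that the choice by difference sets apart by itself. Among the more accessible members, those in the upper 5 deciles of mean concentration, 3 of 46 were lower (6.52%) and 2 higher (4.35%), against 26.5% and 1.77% of all peaks in those deciles. Among the less accessible, 6 of 38 were lower (15.8%) and 7 higher (18.4%), against 22.3% and 14.9%.

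**Figure D2:**
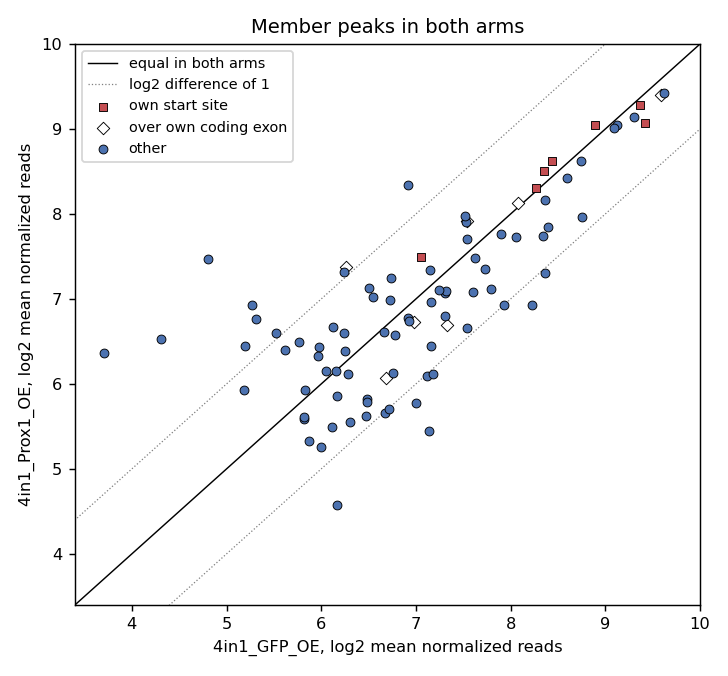
Concentration of each member peak (log2 mean normalized reads) in 4in1_GFP_OE on the x axis and in 4in1_Prox1_OE on the y axis. The solid line marks equal values and the dotted lines a log2 difference of 1. The start-site squares lie along the solid line between 7.05 and 9.42, and outside coding exons 9 peaks lie above the upper dotted line and 9 below the lower one.

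**Figure D3:**
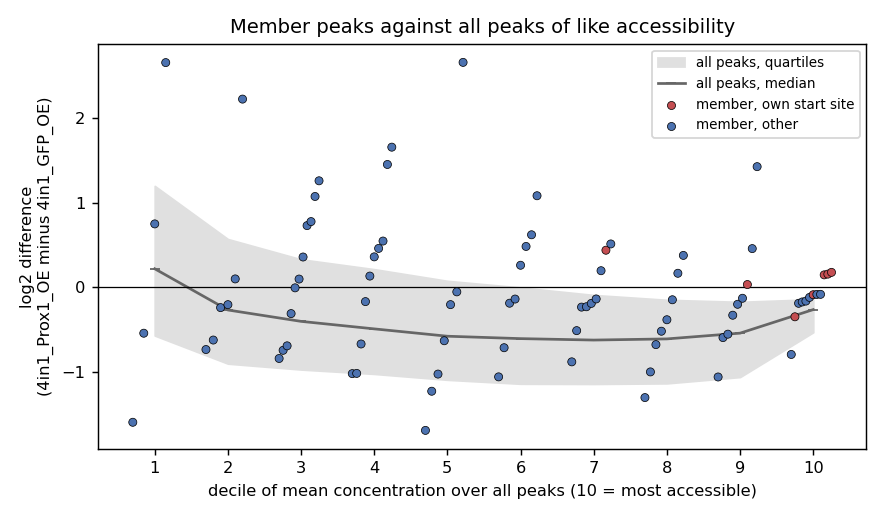
Log2 difference of the 84 members outside coding exons against the decile of mean concentration they fall in, over all peaks (10 is the most accessible), with points spread sideways within a decile. The line and band are the median and quartiles of all peaks in each decile. The band falls from a median of 0.22 in the lowest decile to -0.62 in decile 7 and returns to -0.26 in the highest, where the start-site points of Foxa1, Onecut1 and Onecut2 lie above it.

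The 20 peaks of the Foxa genes outside coding exons had a median of 0.13, with 11 above 0. Of them, 1 was lower by at least 1 (5%) and 2 were higher (10%), against 24.4% and 8.33% of all peaks. At Foxa2 all 5 peaks lay above 0, within the narrow range from 0.098 to 0.46. They were the start-site peak, a peak 1.58 kb upstream of the gene that went from 7.53 to 7.91, and 3 peaks downstream (0.46, 0.36 and 0.098). None reached 1, yet the locus median of 0.38 stood at percentile 98.2 of the 15965 protein-coding loci with at least 5 peaks, most of which had a median below 0.

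Foxa1 had 5 peaks outside coding exons with a median of 0.16, and with its coding peak counted the locus stood at percentile 97.7. The peak with the FOXA letters, 5.50 kb past the end of the gene, went from 6.54 to 7.03 (93.4 to 131 normalized reads). A peak 21.3 kb past the gene end went from 3.71 to 6.36 (13.1 to 82.2 normalized reads), a difference of 2.65 (percentile 96.0). That site lies over an exon of Gm2568, a processed pseudogene, and reads may be shared with the parent gene, so the value is uncertain. The peak at the upstream edge of the locus, 24.9 kb away, was lower at -0.74.

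Foxa3 had 10 peaks outside coding exons with a median of -0.085, which lay above 0 under each of the 4 centrings. One stood out: the peak 2.40 kb past the end of the gene, at chr7:19010682-19010882, which holds the FOXA letters shown above. It went from 6.92 to 8.34, or from 121 to 325 normalized reads, a 2.69-fold difference. With a mean concentration in decile 9 it ranked at percentile 99.9 of peaks of like accessibility, where most peaks were lower. The next peak, 0.80 kb past the gene end, went from 7.54 to 7.70. On the upstream side a peak 22.9 kb from the gene was lower, from 7.12 to 6.10 (-1.02, short of -1 under each centring), and one at 11.9 kb was higher, from 5.77 to 6.50.

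Hnf4a showed the widest spread and had no peak over its coding exons. Of its 11 peaks, 2 were lower by at least 1 (18.2%) and 3 higher (27.3%), against 24.4% and 8.33% of all peaks. The largest positive difference among all members was the peak at chr2:163502304-163502504, 4.304 kb upstream of the gene body, which went from 4.81 to 7.46 (28.0 to 177 normalized reads, 6.31-fold). It ranked at percentile 99.7 of its decile and lies over a coding exon of the neighbouring gene R3hdml. A peak 15.8 kb upstream went from 5.31 to 6.76 (1.45) and one inside the gene from 5.52 to 6.60 (1.07). Between them, 12.5 kb upstream, the peak at chr2:163494089-163494289 was lower, from 8.23 to 6.92 (299 to 121 normalized reads), and it lies over an exon of Hnf4aos, a transcript antisense to Hnf4a. It stood at percentile 17.4 of its decile, and its difference of -1.30 became -0.88 when centred on all peaks and -0.89 with equal totals. A peak 16.3 kb past the gene end was lower from a low level, 6.16 to 4.57 (-1.59, percentile 1.68). The most accessible peak of the locus, inside the gene, stood at 8.36 and 8.16. The locus median of 0.20 was at percentile 95.9 of loci.

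Gata4 and Cebpa lay near the middle of all loci. At Gata4, none of the 14 peaks outside coding exons reached 1. Of them, 11 lay below 0 (78.6%, near the 72.3% of all peaks), with a median of -0.23. The lowest, inside the gene at chr14:63222259-63222459, went from 7.93 to 6.93 and stopped just short of the threshold at -0.998. The start-site peak, with the HNF4 letters, was the highest of the more accessible ones. At Cebpa 1 of 10 peaks was lower and 1 higher (10% each, against 24.4% and 8.33% of all peaks), with a median of -0.24. The higher one, 12.81 kb past the gene end at chr7:35134736-35134936, holds the FOXA letters and went from 5.27 to 6.92 (38.6 to 122 normalized reads, 3.15-fold, percentile 96.2). The lower one, 16.4 kb past the end, went from 6.67 to 5.66 (-1.02, short of -1 under each centring). Both medians lay above 0 under 3 of the 4 centrings (all peaks, equal totals, the most accessible 10%) and below it when centred on promoter peaks, and their loci ranked at percentiles 57.4 and 56.7.

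Onecut1 was the one member whose locus median, -0.59, lay below the median of all peaks, and it stayed below 0 under each centring. This place depended on the window, since the median was -0.19 with a flank of 10 kb and -0.0060 in the gene body alone, both above the median of all peaks. The low values lay together downstream of the gene. Of the 8 peaks between 5.73 and 21.3 kb past its end, 5 were lower by at least 1, 7 were below 0 and the median was -1.04, against 26.7% lower and 71.5% below 0 of all distal peaks. Of the 5, the lowest alone stayed past 1 when centred on all peaks, on equal totals or on the most accessible 10%, and 2 did when centred on promoter peaks. The lowest went from 7.14 to 5.45 (141 to 43.7 normalized reads), and the most accessible of the 5 from 8.36 to 7.31 (329 to 158). The 5 stood between percentiles 3.50 and 28.9 of their deciles. The exception, 17.5 kb past the end, went from 6.50 to 7.12. The other 7 peaks of the locus outside coding exons, start site included, held 0 lower and 1 higher with a median of -0.19. The downstream stretch was set apart after its values were seen, and it has no test. Without the Onecut1 locus, 4 of 69 member peaks were lower by at least 1 (5.80%) and 8 higher (11.6%), with a median of -0.13.

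Onecut2, on chromosome 18, had 9 peaks with a median of -0.053, above 0 under each centring. None was lower by at least 1, and a peak in the gene 42.1 kb from its 5′ end went from 6.24 to 7.32 (1.08). A neighbour of that peak, less than 1 kb away, went the other way, from 6.48 to 5.79. At Xbp1 4 of 5 peaks outside coding exons were below 0 (80%, against 72.3% of all peaks). The locus median of -0.16 lay above 0 under each centring and was 0.85 with a flank of 10 kb, which holds 2 peaks (-0.52 and 2.22). The exception was a peak 6.33 kb upstream that went from 4.31 to 6.53 (19.8 to 92.6 normalized reads, 4.67-fold, percentile 96.9).

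**Figure D4:**
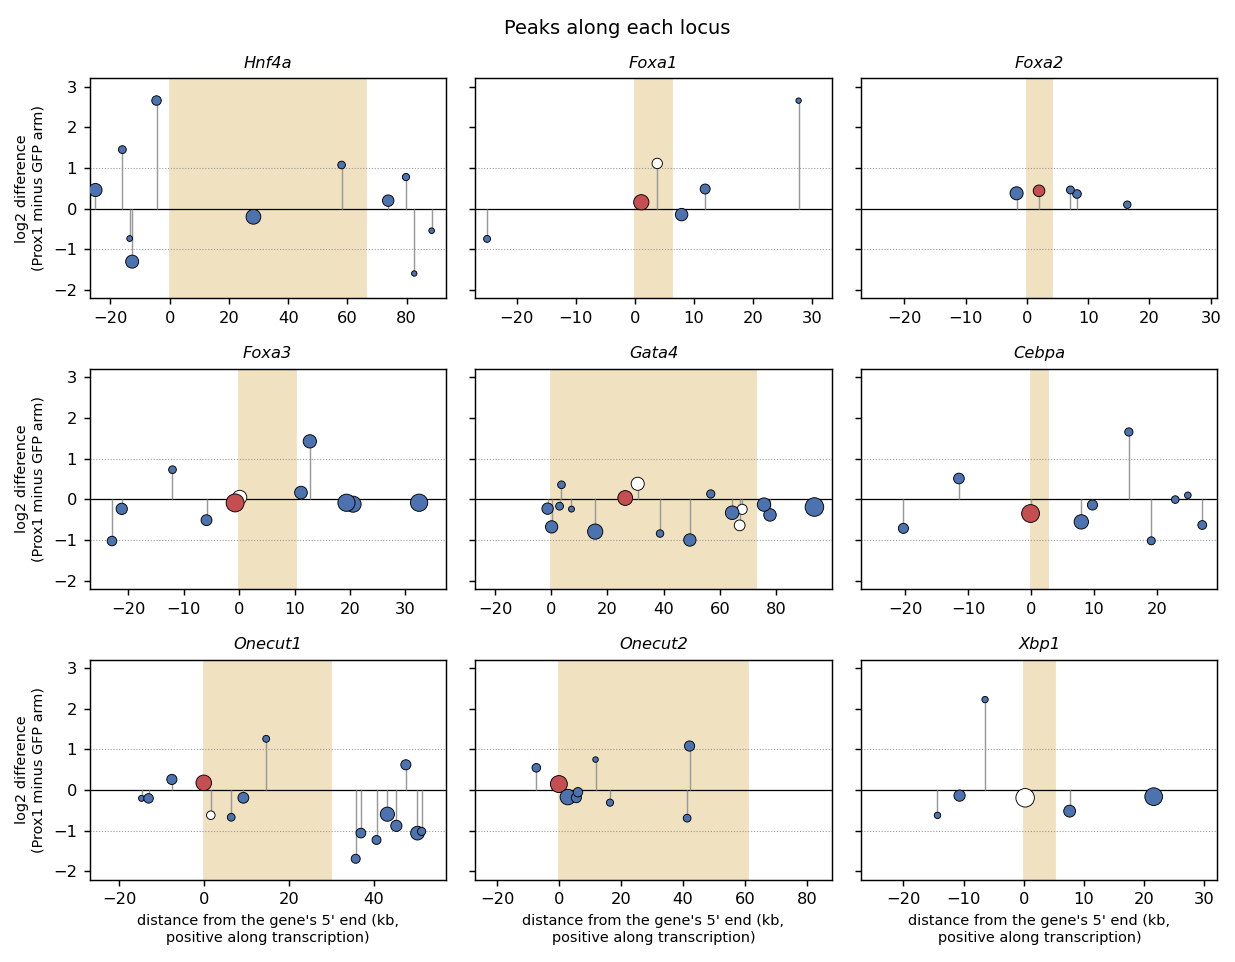
Log2 difference of each member peak along its locus, in kb from the 5′ end of the gene along the direction of transcription. The shaded block is the gene body, red points are own start-site peaks, white points lie over coding exons, larger points have a higher mean concentration, and dotted lines mark 1 and -1. At Foxa2 all 5 points lie above 0, and at Onecut1 5 of the 8 points downstream of the gene lie below -1, of which 1 or 2 remain there under the centrings tried.

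The 7 peaks over coding exons of the factors had concentrations between 6.26 and 9.59 in 4in1_GFP_OE, and the median of all 8780 peaks over coding exons of any gene was 7.39, with a 95th percentile of 9.34. The Xbp1 peak, which is also its start-site peak, was the one above that percentile, at 9.59 and 9.40. For scale, the 3 peaks over coding exons of Prox1, the transgene of 1 arm, went from 1.77 to 10.67, from 3.79 to 11.02 and from 4.01 to 12.74. Among the members, the Foxa1 coding peak was the one past 1, going from 6.26 to 7.37 (1.11). At Gata4 the 3 coding peaks differed by -0.24, -0.64 and 0.38, at Onecut1 by -0.62 and at Foxa3, whose peak is also near its start, by 0.048. Cassette DNA would be present in both arms, and its share of these reads was not tested.

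Ranked by locus median, counted over all peaks of each locus, 8 of the 9 factors stood above the median of all peaks, as did 67.0% of all protein-coding loci, and 3 (Foxa2, Foxa1 and Hnf4a) stood above 0, against 11.1% of loci. With a flank of 50 kb the median outside coding exons turned to -0.10 at Foxa1 and -0.012 at Hnf4a and was 0.37 at Foxa2. The percentiles among protein-coding loci were 85.0 for Onecut2, 82.2 for Foxa3, 69.0 for Xbp1 and 17.0 for Onecut1, beside those given above. The median of locus medians was -0.28 (quartiles -0.50 and -0.14). With a few peaks at each locus, neighbours in this order cannot be told apart: the Xbp1 peaks, for example, ran from -0.62 to 2.22, across the medians of all the others.

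Member peaks were richer in G and C than others, with a median of 55.0% against 48.8% of all peaks. Among all other peaks weighted to the same deciles of concentration, 24.5% were lower and 6.76% higher by at least 1, with a mean difference of -0.38. Weighted to the same deciles of concentration and the same classes of GC content, the other peaks had 16.03% lower, 7.79% higher and a mean of -0.22, against 10.7%, 10.7% and -0.043 for the members. The gap in the mean was thus smaller when GC content was matched, and the part of GC content in it was not tested further.

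**Figure D5:**
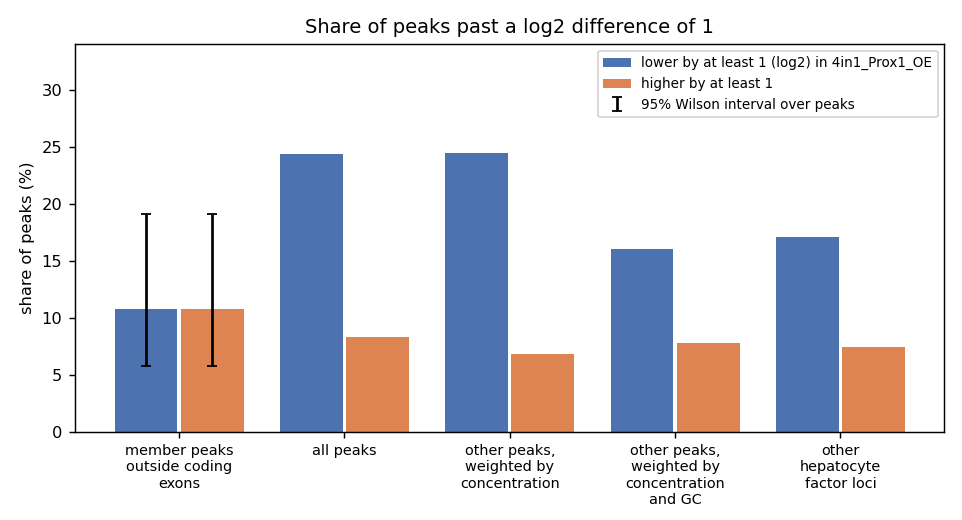
Share of peaks (%) lower (blue) or higher (orange) by at least 1 on the log2 scale in 4in1_Prox1_OE. Bars show the 84 members with 95% Wilson intervals, all peaks, all other peaks weighted to the members' concentrations or to their concentrations and GC content, and the 16 other hepatocyte factor loci. Members have 10.7% in both directions, against 24.4% lower and 8.33% higher of all peaks.

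The loci of 16 other hepatocyte transcription factors, among them nuclear receptors of bile acid and drug metabolism, were read in the same way. Of their 176 peaks outside coding exons, 30 were lower (17.0%) and 13 higher (7.39%) by at least 1, against 24.4% and 8.33% of all peaks. Their median was -0.34, and 2 of 16 locus medians lay above 0. Of their 16 start-site peaks, 13 were below 0, against 77.9% of all promoter peaks, and 2 were lower by at least 1 (12.5%, against 8.26%). The difference between the 2 sets of loci was not tested. Low medians were found for Nr1i2, the xenobiotic receptor PXR (-0.78), and Nr1h4, the bile acid receptor FXR (-0.69). The highest were those of Nr5a2, a nuclear receptor of bile acid synthesis (0.46), Ppara, the fatty acid receptor (0.080), and Mlxipl, the carbohydrate response factor ChREBP (-0.0085). Nr5a2 and Ppara each had 3 of 10 peaks higher by at least 1 and none lower, against 8.33% higher and 24.4% lower of all peaks.

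The letters of 8 motifs were searched on both strands of the member peaks, and no motif contained another. FOXA (TGTTTAC) was in 3 of 91 members (3.30%), the Foxa3, Cebpa and Foxa1 peaks above with differences of 1.43, 1.66 and 0.48, and in 2.65% of all peaks, whose median with these letters was -0.39. HNF4 (CAAAGTCCA) was in 1 (1.10%, against 0.303%), the Gata4 start site. The letters AGATAA, bound by GATA factors, were in 4 (4.396%, against 6.72%), all at Onecut1 and 2 of them lower by at least 1. AP-1 (TGANTCA), the site of factors that are highly active in fibroblasts, was in 10 (10.99%, against 28.8%), with a median of -0.57 against -0.82 for all peaks with these letters. TEAD (ACATTCC) was in 6 (6.59%, against 7.69%). ONECUT (TATTGATT), CEBP (TTGCGCAA) and the Prox1 motif were in 0 members, against 0.310%, 0.0747% and 0.0232% of all peaks. A match is a match of letters in a window of 201 bases and does not show that a factor binds there.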

How the data were processed

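ATAC-seq reads were trimmed (trimmomatic 0.38), mapped to mm10 (Bowtie 2 2.3.4.3), corrected for Tn5 insertion bias and filtered by the authors, who compared peaks with DiffBind 3.4.11. The peak caller is uncertain, since the methods name MACS2 2.1.2 and the reporting summary another tool. For the comparison the paper points to the vignette of that DiffBind release, and the normalization setting itself is not given in the sources used here. The authors deposited log2 concentrations (log2 mean normalized reads over both arms and within each) for 201-base windows. Their fold changes, p-values, FDR and 2 lists of called peaks hold the authors' own comparison and were not used. No test was therefore made, since the columns used hold group means only. The log2 difference of the arms was computed for all peaks, with a size of 1 as the threshold, and described against all peaks. The steps were tested on simulated data. Genes and start sites came from the GENCODE M21 basic annotation and sequences from GRCm38.p6, trimmed of untranslated exons, with none printed from chromosome 18. Members, lists and motifs were chosen with earlier results of these data known. Each start-site peak, the most accessible peak and the lowest and highest of the more accessible peaks of a locus, and coding-exon peaks, were named by rule. Peaks past 1, the FOXA-letter peaks and the Onecut1 stretch were also named after their values were seen, and of the sequences fixed by rule those the results turn on are printed. Of the other hepatocyte factors, the loci of lowest and highest median were named, and 1 of these is not reported here. Alternatives covered centring, threshold, pseudocount, filter, window and annotation. Software was pandas 2.3.3, numpy 2.4.6, matplotlib 3.10.9 and scipy 1.17.1, under Python 3.11.15.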

Additional observations from a re-analysis of the deposited data

How the results depend on the processing

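No paired analysis was possible because the columns used hold group means, with no value per library, and for the same reason no replicate could be left out. The direction of the members' median depended on where 0 was placed. Their median of -0.15 became 0.26 when centred on all peaks, 0.26 with equal totals, 0.11 when centred on the most accessible 10% and 0.060 when centred on promoter peaks, with 2, 2, 3 and 4 peaks lower by at least 1. Under these centrings 13, 13, 11 and 9 of the 84 peaks were higher. Of all peaks, 13.4%, 13.3%, 11.2% and 10.6% were then higher, and 8.64%, 8.80%, 13.9% and 15.7% lower. Centred on promoter peaks, the members' 9 higher peaks (10.7%) were thus near the share of all peaks. Each centring raises every difference by 1 constant, so values above 0 could not turn and their stability shows nothing. Other thresholds and added reads moved the 9 lower and 9 higher peaks as their construction implies. A threshold of 0.5 gave 26 and 15, and one of 1.5 gave 2 and 4. Adding 16 reads to each mean left 4 lower. Other windows moved the lower and the higher counts unequally. The gene bodies alone held 0 lower and 3 higher of 27 peaks, a flank of 10 kb 2 lower and 6 higher of 50, and one of 50 kb 19 lower and 13 higher of 127. Without the Onecut1 locus 4 were lower. For the other hepatocyte factor loci, the 4 centrings in the same order gave 8, 8, 13 and 15 lower peaks of 176, beside the shares of all peaks above. The medians there were 0.081, 0.076, -0.074 and -0.12, with 21 peaks higher under the first and 21 under the second. A threshold of 0.5 gave 72 and 24 there, one of 1.5 gave 6 and 4, and leaving out the 25% of peaks of lowest concentration left 6 higher. The last 3 settings were chosen after seeing the data. These counts stayed within 1.5 times, and these medians within their 95% binomial interval over peaks, in 56 other cases, and of the values of single loci and peaks 41 moved and 128 stayed. The precision of single peaks is unknown.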

Other observations

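Several member peaks mark the start sites of genes that share a window with a factor. At the Gata4 locus, the most accessible of all member peaks lay at the start of Fdft1, the squalene synthase of cholesterol synthesis, with 9.61 in 4in1_GFP_OE and 9.43 in 4in1_Prox1_OE. The start of Neil2, a DNA repair glycosylase, had 7.73 and 7.35. Both peaks at Irf2bp1, in the Foxa3 window, differed by -0.12 and -0.083, and the peak at Mypop by -0.082. The start of Ccdc117, in the Xbp1 window, had 9.30 and 9.14. Over the 12 such peaks 10 lay below 0 (83.3%), near the 77.9% of all promoter peaks. The start of R3hdml, 13.4 kb upstream of Hnf4a, had 5.99 and 5.26, while the peak over its coding exon was the one with the largest positive difference of all members.

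Values at the edge of the window were mixed. Just inside it, 24.9 kb from the genes, peaks at Hnf4a and Foxa1 differed by 0.46 and -0.74. Just outside, a peak 25.6 kb from Xbp1 differed by -1.36 and one 26.1 kb from Hnf4a by 0.0054.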
